A study of Mus musculus with 15 samples.

Results

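HSF1 binding was examined at the genes of the HSP70 chaperone machine in brown fat of mice, a tissue specialised for making heat. The genes are 10 of 21887 protein-coding genes: the HSP70 genes Hspa8, Hspa1a, Hspa1b and Hspa2, the HSP110 genes Hsph1, Hspa4 and Hspa4l, and the partner genes St13, Hspbp1 and Hikeshi. A peak was assigned to a gene when it overlapped the gene's span extended by 5 kb on each side in build GRCm38 (mm10), and the strongest peak of a gene is the one with the highest fold. Chromatin was precipitated with an HSF1 antibody in 10 libraries, 2 in each of 5 groups: wild type (WT) mice at room temperature, WT mice after 40 min of cold (first pair), WT mice after 4 h of cold, mice labelled TXNIP KO after 40 min of cold, and WT mice after 40 min of cold again (second pair, whose titles carry the replicate numbers with a suffix). The labels do not say which WT pair was prepared with the TXNIP KO samples, or whether both pairs come from the same material. All tissue was crosslinked in the same way, with DSG followed by formaldehyde. The labels do not name the strain, sex, age, exact housing temperature, kind of Txnip allele or number of animals behind a library, so the spread between the libraries of a group may be technical. The peak lists carry no read counts, and depth is therefore unknown. In whole tissue, fewer cells with HSF1 bound and less HSF1 bound per cell cannot be told apart.

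HSF1 is the transcription factor that turns on chaperone genes when unfolded proteins accumulate, and HSP70 itself binds and restrains HSF1. HSP70 proteins grip unfolded segments of other proteins in a cycle driven by ATP: J-domain HSP40 proteins load the substrate and trigger hydrolysis, and nucleotide exchange factors, which include the HSP110 proteins, release it. HSF1 binds as a trimer to heat shock elements, runs of the unit GAA in alternating orientation.

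The promoter sequences of the genes whose windows held HSF1 summits are shown first, because they place the peaks against the heat shock elements. RefSeq promoters in GRCm38.p6, each from 250 bases before to 50 after a transcription start, were matched for 8 of the 10 genes, all but Hspa8 and St13. Hsph1 had 2 promoter entries, and the first was used for its sequence and distances. Its start lies inside the annotated gene span. Of these 8 windows, those of Hspa1a (chr17:34972107-34972406, minus strand), Hspa1b (chr17:34959189-34959488, minus strand) and Hsph1 (chr5:149636287-149636586, minus strand) held the summit in 10 of 10 lists, and that of Hspbp1 (chr7:4684932-4685231, minus strand) in 5 of the 8 lists with a peak. They run from 5′ to 3′ on the gene's strand, with capitals at heat shock element matches under the tolerant searches defined below.
Hspa1a: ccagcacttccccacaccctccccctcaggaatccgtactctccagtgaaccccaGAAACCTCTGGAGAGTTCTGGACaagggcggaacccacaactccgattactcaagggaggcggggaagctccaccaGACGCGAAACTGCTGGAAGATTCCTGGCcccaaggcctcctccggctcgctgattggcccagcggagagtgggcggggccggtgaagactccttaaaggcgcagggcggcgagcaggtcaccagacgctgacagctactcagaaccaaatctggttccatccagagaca
Hspa1b: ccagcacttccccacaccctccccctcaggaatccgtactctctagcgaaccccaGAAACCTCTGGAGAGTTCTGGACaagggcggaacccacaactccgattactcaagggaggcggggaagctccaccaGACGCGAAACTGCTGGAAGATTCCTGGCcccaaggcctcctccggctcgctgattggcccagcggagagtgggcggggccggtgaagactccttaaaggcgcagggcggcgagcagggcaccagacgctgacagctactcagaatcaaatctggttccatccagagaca
Hsph1: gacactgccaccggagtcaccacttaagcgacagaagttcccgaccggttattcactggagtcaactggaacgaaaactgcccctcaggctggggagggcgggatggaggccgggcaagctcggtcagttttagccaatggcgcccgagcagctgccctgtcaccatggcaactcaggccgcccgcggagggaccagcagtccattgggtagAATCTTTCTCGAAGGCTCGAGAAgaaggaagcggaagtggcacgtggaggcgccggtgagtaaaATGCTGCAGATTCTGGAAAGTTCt
Hspbp1: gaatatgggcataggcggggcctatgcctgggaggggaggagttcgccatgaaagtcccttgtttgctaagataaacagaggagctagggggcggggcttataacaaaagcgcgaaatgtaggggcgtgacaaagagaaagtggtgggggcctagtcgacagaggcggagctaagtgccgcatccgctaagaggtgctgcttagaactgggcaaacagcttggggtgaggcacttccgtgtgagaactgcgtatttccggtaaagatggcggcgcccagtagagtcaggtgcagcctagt

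Heat shock elements were searched as alternating GAA and TTC units with any NN between them. Starting with either unit covers both strands, and neighbouring matches overlap. An exact match of 3 units (GAA, TTC, GAA or TTC, GAA, TTC) occurred in 0.603% of 32851 promoter windows, and among the 8 genes only in Hsph1, which encodes the stress-inducible HSP110 protein. That element, TTCTGGAAAGTTC, lay 36 to 48 bases after the start of the entry used, and the Hsph1 summits lay 12 to 50 bases from its centre. With 1 mismatch allowed in the 9 fixed letters, a match occurred in 7.22% of windows and in 3 of the 8 genes, Hspa1a, Hspa1b and Hsph1. Hspa1a and Hspa1b share the stretch GAAACTGCTGGAA, which starts 114 bases before the start. A search for 5 such units in a row, starting with GAA or with TTC, with up to 3 mismatches in 15 letters, chosen after the data were seen, matched 0.947% of windows and the same 3 genes. It added a second, distal stretch in both HSP70 promoters, GAAACCTCTGGAGAGTTCTGGAC, 195 to 173 bases before the start. The windows of Hspbp1, Hspa2, Hspa4, Hspa4l and Hikeshi held no match in any of these searches, and the summits at Hspa2, Hspa4, Hspa4l and Hikeshi lay outside their windows.

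Summits at the inducible HSP70 genes lay nearer to the distal stretch than to the proximal one. Only the search chosen after the data were seen matched the distal stretch, so this nearness is a description of position. At Hspa1a the summit was 204 and 201 bases before the start at room temperature, 206 and 209 for the first 40 min pair, 166 and 173 after 4 h, 208 and 200 for TXNIP KO and 198 and 204 for the second 40 min pair. The 4 h summits lay nearer to the start than those of the other 8 libraries, which spanned 11 bp. The 4 h peaks were also narrow, 326 and 533 bp against 1112 and 1190 bp at room temperature, and the part of the lower signal in this offset was not tested. Over all 10 lists, the Hspa1a summit stayed within 25 bases of the centre of the distal stretch and 58 to 101 bases from the centre of GAAACTGCTGGAA. At Hspa1b the summit ranged over 36 bp and lay within 33 bases of the distal centre. The 4 h summits there were 209 and 181 bases before the start, beside 200 to 217 in the other 8 libraries. An offset towards the start, as at Hspa1a, was thus seen in the second 4 h library and not in the first. The Hspa1a and Hspa1b windows differed at 4 of 300 bases (98.7% identical), with 201 identical bases in a row from 203 to 3 bases before the start. How reads that map to both copies were assigned is not given in the sources used here, so the division of signal between these genes is uncertain.

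**Figure D1:**
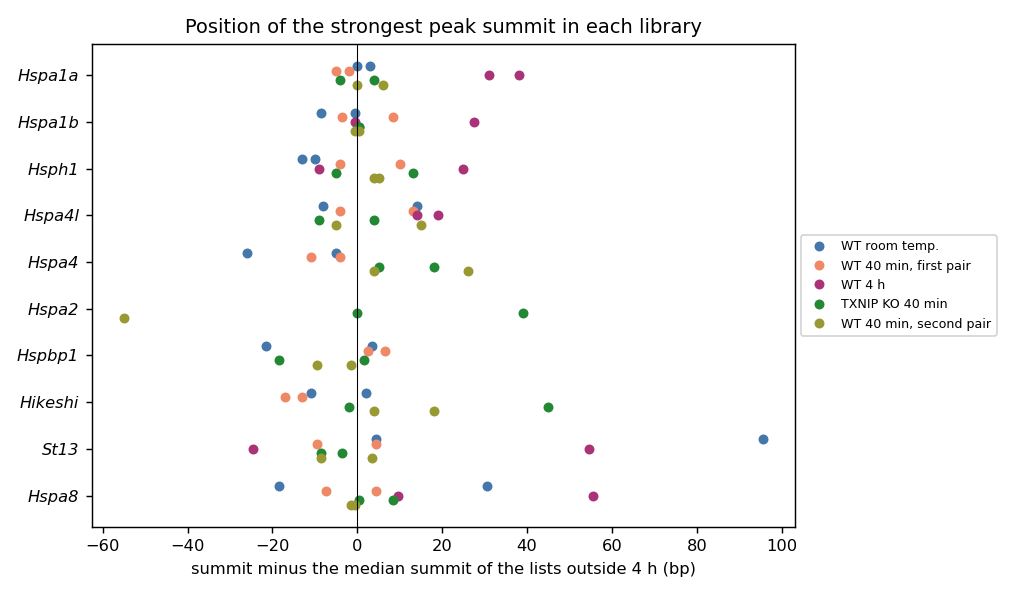
Position of the strongest summit of each gene in each library, in bp from the median summit of the lists outside 4 h, with positive values downstream on the gene's strand (Hspa8 and St13 in the direction of the chromosome), and 1 point per library coloured by group. The 4 h points of Hspa1a stand apart from the other 8, while the Hspa4l and Hspbp1 summits each span 28 bp over all lists with a peak.

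Summit positions varied little at most of the genes. Over the 9 genes called in all 8 lists outside 4 h, the summit range had a median of 28.0 bp, beside 59.0 bp over the 508 distinct strongest peaks of genes called in those lists. Over the 6 genes called in all 10 lists it was 40.5 bp, beside 54.0 bp over 76 peaks. The comparison peaks were not matched for strength, and the strongest peak of a gene may be a different one in different lists. The smaller ranges are therefore not shown to be a trait of these genes. Among the 6 genes called in all 10 lists, the widest range was 120 bp at St13, followed by 74 bp at Hspa8. The Hspa4l summit lay 281 to 309 bases before the transcription start of its RefSeq promoter, and the Hspbp1 summit 241 to 269 bases before. Against the gene spans, however, the Hspa4l summit lay 804 to 832 bases inside the lower end. The Hspbp1 summit lay 34 to 62 bases outside the upper end. The Hspa4 summit lay 60 to 112 bases after its transcription start. At Hikeshi it lay 124 to 186 bases after the start. Hspa8 summits fell 108 to 182 bases outside the lower end of the gene and St13 summits 134 to 254 bases outside its upper end. The St13 peak is shared with Xpnpep3, a mitochondrial aminopeptidase gene whose nearest end was 252 bp from the median summit, and the Hspa1a peak with Hspa1l, whose nearest end was 344 bp away. The Hspbp1 peak also reached the extended span of Brsk1, a kinase gene whose nearest end lay 5407 bp from the summit.

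Peak lists held 919 and 1269 peaks at room temperature, 2287 and 1670 for the first 40 min pair, 123 and 351 after 4 h, 10399 and 10633 for TXNIP KO and 12644 and 14583 for the second 40 min pair. Fold enrichment is the authors' value for a peak over its local background, and ranks below order the peaks of 1 list by fold. Which input served which library is not stated, so folds of different lists are set side by side without a test. With 2 libraries against 2, no two-sided exact permutation test can give a p under 0.33, and none was run. The strongest peak of every list was that at Hspd1 and Hspe1, the mitochondrial chaperonin genes, with folds of 53.6 and 117 at 4 h against 194 and 193 at room temperature. An HSF1 peak list measures no expression, so neither the tissue label nor the Txnip deletion could be checked with it, and a Txnip peak was listed in both TXNIP KO libraries (folds 9.96 and 11.0).

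Hspa8, the constitutive HSP70 of the cytosol (chromosome 9, 40801276 to 40805202), carried one of the strongest peaks of every list. Its fold was 112 and 97.4 at room temperature, 162 and 155 for the first 40 min pair, 26.4 and 55.0 after 4 h, 503 and 539 for TXNIP KO and 651 and 625 for the second 40 min pair. The rank stayed between 5 and 10 in all 10 lists. Outside 4 h the peak was the widest of the 10 genes in every list, at up to 3600 bp.

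Hspa1b and Hspa1a, the stress-inducible HSP70 genes (chromosome 17, 34956429 to 34959238 and 34969359 to 34972156), had strong peaks at room temperature already. Hspa1b had folds of 111 and 102 at room temperature, 171 and 132 for the first 40 min pair, 12.4 and 19.3 after 4 h, 450 and 448 for TXNIP KO and 488 and 547 for the second 40 min pair. Hspa1a had folds of 81.3 and 96.1 at room temperature, 139 and 123 for the first 40 min pair, 8.27 and 15.7 after 4 h, 383 and 340 for TXNIP KO and 424 and 453 for the second 40 min pair. Hspa1a stood below Hspa1b in each of the 10 lists, a comparison that rests on how reads common to both copies were divided. Outside 4 h the ranks were 7 to 11 for Hspa1b and 11 to 13 for Hspa1a. At 4 h they were 19 and 27 for Hspa1b and 43 and 41 for Hspa1a, in lists that are far shorter.

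**Figure D2:**
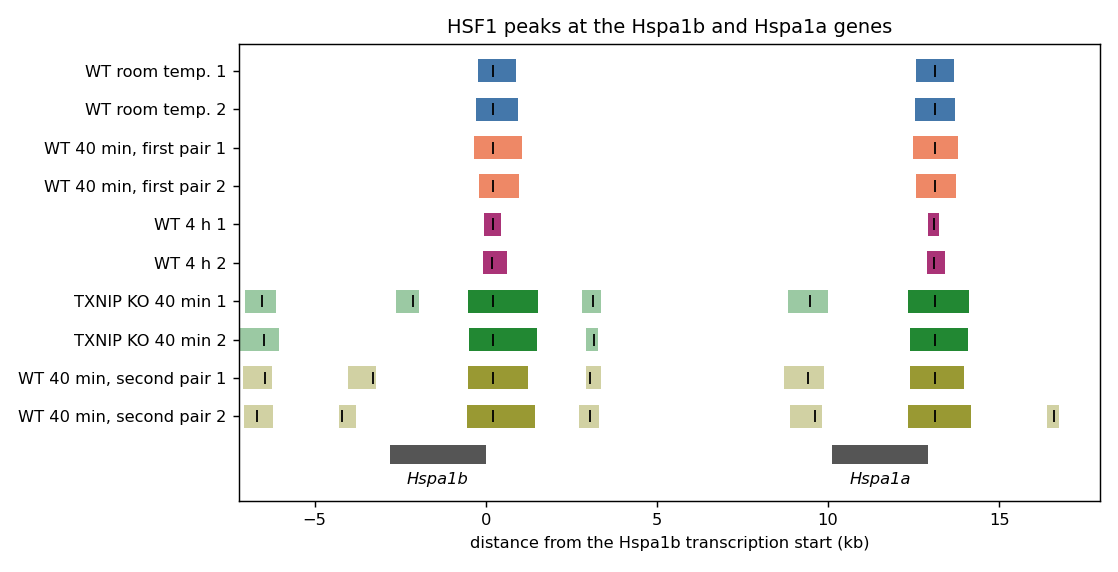
HSF1 peaks at Hspa1b and Hspa1a in each library (rows), drawn to scale as distance from the Hspa1b transcription start in kb, with genes as grey boxes, the strongest peak of a gene in full colour, weaker ones pale and summits as black ticks. Every library has 1 strong peak just outside the start of each gene, and pale peaks appear only in the TXNIP KO and second 40 min lists.

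Hspa2, the HSP70 gene known for its role in male germ cells (chromosome 12, 76403812 to 76406938), had no peak in any of the 6 lists at room temperature, after 40 min (first pair) and after 4 h. Weak peaks with folds of 4.77 and 3.56 were called in TXNIP KO, and 1 of fold 4.96 in replicate 1 of the second 40 min pair. Their ranks were 6810, 9163 and 7457. These summits lay 535 to 629 bases before the transcription start of the promoter table, at the lower end of the annotated gene.

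Hsph1 (chromosome 5, 149616843 to 149636498), an HSP110 protein that releases nucleotide from HSP70 and helps to dissolve aggregates, had a peak with ranks close to those of Hspa1a and Hspa1b outside 4 h and better than theirs at 4 h. Its fold was 97.5 and 117 at room temperature, 159 and 126 for the first 40 min pair, 15.4 and 32.1 after 4 h, 443 and 402 for TXNIP KO and 509 and 530 for the second 40 min pair. It ranked 6 to 10 outside 4 h and 15 and 11 at 4 h.

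Hspa4l, another HSP110 gene (chromosome 3, 40744500 to 40796103), came next. Its fold was 57.2 and 60.3 at room temperature, 108 and 87.4 for the first 40 min pair, 11.5 and 24.3 after 4 h, 273 and 295 for TXNIP KO and 280 and 344 for the second 40 min pair. Its rank of 15 to 29 held for all 10 lists. Hspa4 (chromosome 11, 53259814 to 53300479), the third HSP110 gene, had a much weaker peak. Its fold was 7.25 and 9.86 at room temperature, 12.8 and 7.52 for the first 40 min pair, 46.8 and 39.4 for TXNIP KO and 34.2 and 42.2 for the second 40 min pair, and no peak was listed at 4 h. Its rank ran from 322 to 872. The HSP110 genes thus spread over a wide range of ranks, with Hsph1 and Hspa4l at rank 29 or better in all 10 lists and Hspa4 at rank 322 or lower in the 8 lists that hold it.

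St13, which encodes Hip, a cochaperone that stabilises HSP70 bound to its substrate (chromosome 15, 81365044 to 81399694), carried the strongest peak of the 10 genes at room temperature and at 4 h. Its fold was 126 and 118 at room temperature, 156 and 154 for the first 40 min pair, 44.6 and 78.9 after 4 h, 510 and 538 for TXNIP KO and 632 and 623 for the second 40 min pair. It ranked 3 in both room temperature lists, 10 and 7 for the first 40 min pair, 2 in both 4 h lists and 6 or 7 in TXNIP KO and the second 40 min pair.

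Hspbp1 and Hikeshi had peaks of middle strength. Hspbp1 (chromosome 7, 4660515 to 4685188), an exchange factor that also dampens HSP70 activity, had folds of 18.3 and 20.7 at room temperature, 23.8 and 21.4 for the first 40 min pair, 82.9 and 104 for TXNIP KO and 96.6 and 119 for the second 40 min pair. Hikeshi (chromosome 7, 89918685 to 89941223), the carrier that brings HSP70 into the nucleus after heat stress, had folds of 12.6 and 13.1 at room temperature, 30.4 and 22.7 for the first 40 min pair, 101 and 99.6 for TXNIP KO and 112 and 123 for the second 40 min pair. Neither had a peak at 4 h. Hspbp1 stood above Hikeshi in both room temperature lists, and Hikeshi above Hspbp1 in both lists of the first and of the second 40 min pair. In TXNIP KO the order differed between the libraries.

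**Figure D3:**
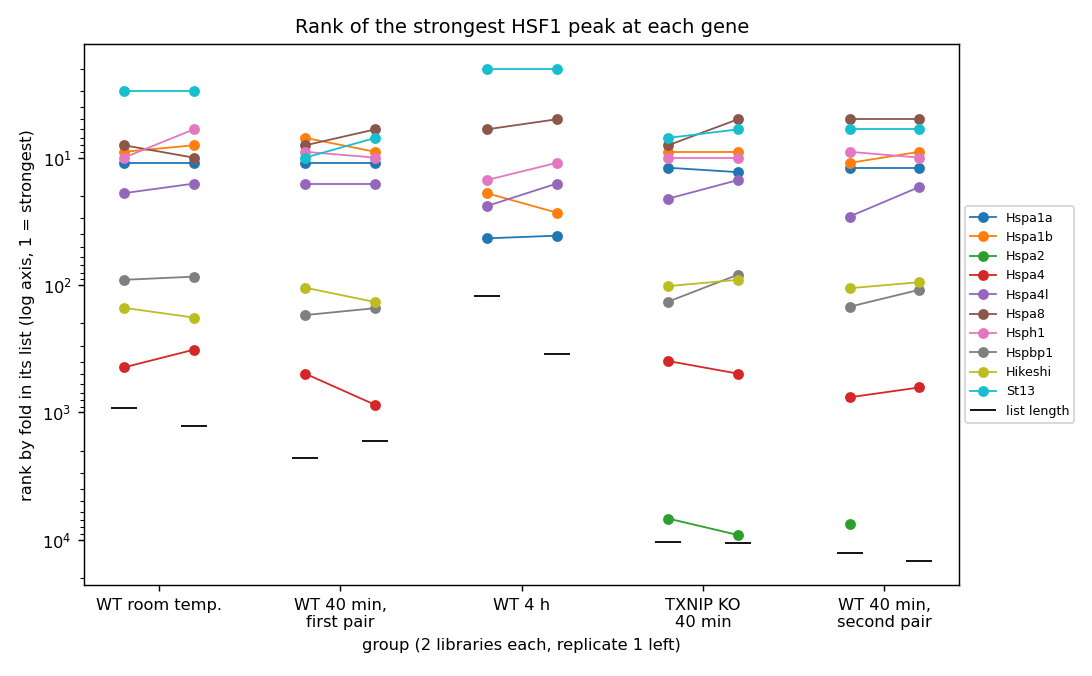
Rank of the strongest peak of each gene by fold in its own list (log axis, 1 at the top), with the 2 libraries of a group joined by a line and black bars at the list length. St13, Hspa8, Hspa1b, Hsph1, Hspa1a and Hspa4l stay at rank 43 or better in every list. Hspbp1, Hikeshi and Hspa4 lie lower and are missing at 4 h, and Hspa2 appears only in the lower part of 3 long lists.

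By rank, the genes fell into tiers that recurred from list to list. Of the 10 genes, 6 stood among the 30 strongest peaks of each library outside 4 h and 5 in each 4 h library, where Hspa1a was the one that left. The 30 strongest are a far larger part of the 4 h lists (123 and 351 peaks) than of the others. As a percentage of its list, the Hspa1a rank was 35.0% and 11.7% at 4 h, against 1.2% and 0.867% at room temperature. That of Hspa4l was 19.5% and 4.56%, against 2.07% and 1.26%. A peak of both libraries was listed for 9 genes at room temperature, beside 2.95% of all protein-coding genes, for 9 after 40 min in the first pair (4.97% of all genes), for 6 at 4 h (0.466%), for 10 in TXNIP KO (21.0%) and for 9 in the second 40 min pair (26.6%). These shares are a background and not a test, because the genes were chosen with earlier results of these lists known.

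The time course asks where HSF1 binding appears and disappears in the cold. A gene was called gained when both libraries of the later group and neither of the earlier one had a peak, and lost in the opposite case. Each count is set against the genes that could change: those with a peak in neither earlier library for a gain, and in both for a loss. After 40 min (first pair) against room temperature, Hspa2, the 1 gene that could be gained, was not (1.15% of 20878 genes were), and 0 of the 9 that could be lost were lost (0.465% of 645). At 4 h against room temperature, 0 of 1 was gained (0.00958% of 20878) and 3 of 9 were lost, namely Hspbp1, Hikeshi and Hspa4, beside 63.4% of 645 genes. At 4 h against the first 40 min pair the same 3 of 9 genes were lost, beside 75.2% of 1087, and 0 of 1 was gained (0.00495% of 20202). The 3 lost genes had weaker peaks than the 6 that stayed, in every list outside 4 h. With lists of equal length, only Hspbp1 was lost against room temperature and 0 genes against the first 40 min pair. Cutting lists to the shortest also removes weaker peaks of the earlier groups, and a gene without them cannot be counted as lost. This setting therefore cannot show whether the losses depend on list length, and the part of the short 4 h lists was not tested.

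Within the lists, the inducible HSP70 genes stood lower at 4 h relative to the other strong peaks. To set peaks of 1 list on a common scale, each fold was expressed as a percentage of the fold at the Hspd1/Hspe1 peak of the same list. Hspa1a stood at 15.4% and 13.4% at 4 h, against 41.8% and 49.8% at room temperature (means 14.4 ± 1.41% and 45.8 ± 5.67%, SD, n = 2 libraries each). Hspa1b stood at 23.1% and 16.5% at 4 h, against 56.9% and 52.8% at room temperature. Neither gene's groups overlapped, and the difference of mean log2 percentages was -1.67 for Hspa1a and -1.49 for Hspa1b.

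Hsph1 differed in the same direction by less, with 28.7% and 27.4% at 4 h against 50.2% and 60.8% at room temperature (log2 difference -0.98). Hspa4l stood at 21.4% and 20.7% at 4 h and at 29.4% and 31.3% at room temperature (-0.53). For both, the 4 h libraries lay close together and below the room temperature libraries. The constitutive Hspa8 differed least, with 49.2% and 46.95% at 4 h against 57.4% and 50.5% at room temperature (-0.16). St13 was higher, with 83.1% and 67.4% at 4 h against 65.0% and 61.2% at room temperature (0.25). Thus 5 of 6 genes were lower in both 4 h libraries than in both room temperature libraries, beside 47.4% of the 76 distinct strongest peaks called in all 4 libraries, and 1 was higher, beside 32.9%. These shares mix strong and weak peaks. All 6 genes belong to the 38 peaks stronger at room temperature, whose median log2 difference was -0.67, so the shares are not like for like. For Hspa8 and St13 the gap between the groups was smaller than the spread between 2 libraries of a group.

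The median log2 difference over those 76 peaks was -0.05. None of the other 75 lay below Hspa1a, and 2 lay below Hspa1b: Hspa1a itself and the peak at Ahsa2, a cochaperone gene of HSP90. Genes without a 4 h peak are not among them, and 63.4% of those called at room temperature were lost at 4 h. Their differences are unknown, so the place of Hspa1a and Hspa1b holds among retained peaks only. The log2 difference was lower for peaks with a high room temperature fold. Its median was -0.67 over the 38 peaks with a room temperature fold above 31.2, where all 6 genes belong, and 0.68 over the 38 weaker ones. Both HSP70 genes thus lay below the median of the strong peaks too, whose values ran from -1.67 to 0.62. The room temperature fold sets this split and also enters the difference, and weak peaks count only when called at 4 h. Both favour lower values in the stronger set, so the split alone shows no effect of strength. Peak lists do not show counting error, and the part of the lower signal at 4 h in this pattern was not tested.

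**Figure D4:**
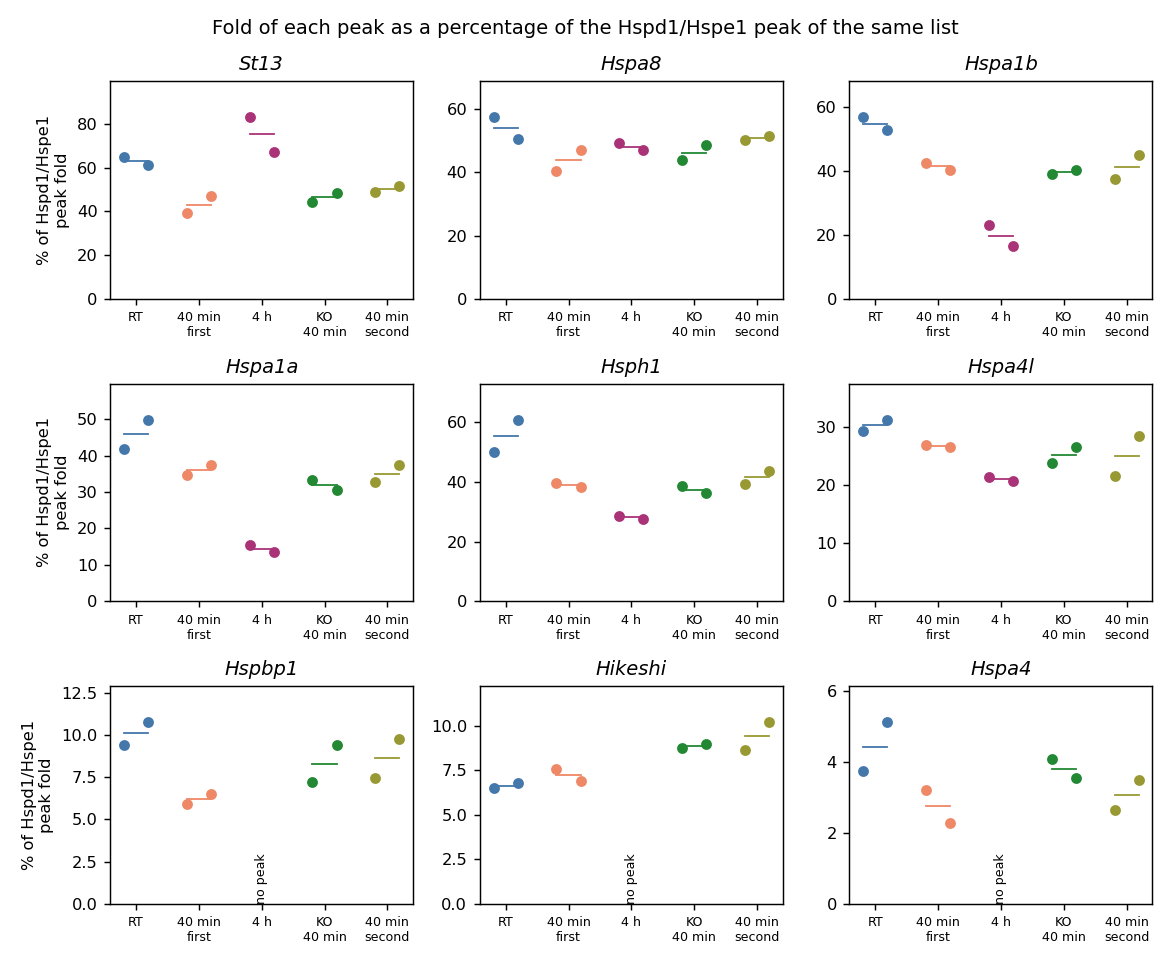
Fold of the strongest peak of 9 genes as a percentage of the fold at the Hspd1/Hspe1 peak of the same list, with 1 point per library and a line at the group mean. Hspa1a and Hspa1b lie at 13.4 to 23.1% at 4 h, Hspa8 stays between 40.5% and 57.4% in all lists, and Hspbp1, Hikeshi and Hspa4 have no peak at 4 h.

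**Figure D5:**
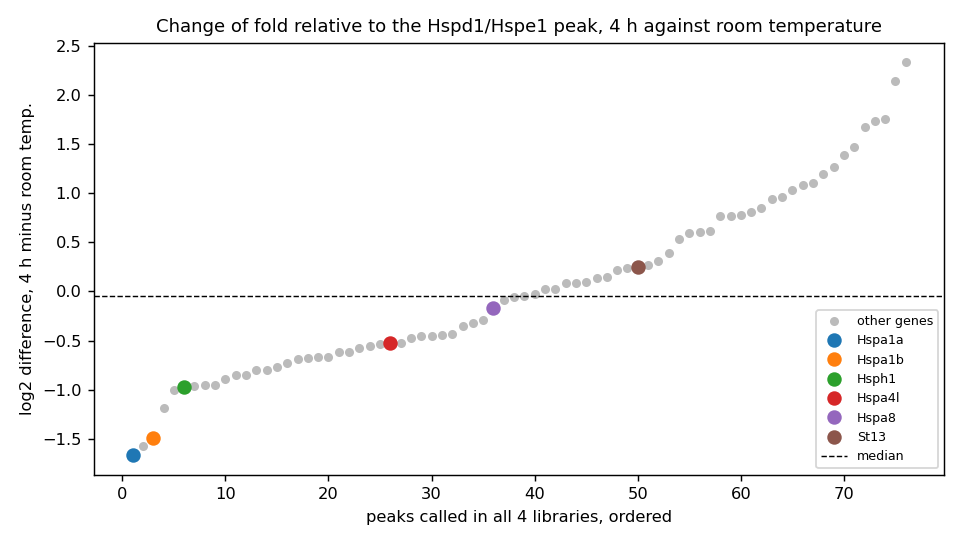
The 76 distinct strongest peaks called in all 4 room temperature and 4 h libraries, ordered by the log2 difference of their fold relative to the Hspd1/Hspe1 peak, 4 h minus room temperature (1 point per peak, dashed line at the median). Hspa1a is the lowest point and Hspa1b the third lowest, while Hspa8 lies near the median and St13 above it.

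Against the first 40 min pair both inducible HSP70 genes were lower at 4 h too. Hspa1a stood at 15.4% and 13.4% at 4 h, against 34.8% and 37.5% at 40 min. Hspa1b stood at 23.1% and 16.5% at 4 h, against 42.7% and 40.4% at 40 min. The log2 differences were -1.33 and -1.09, with a median of 0.25 over 81 peaks. In this comparison 4 of 6 genes were lower at 4 h without overlap, beside 35.8% of peaks. St13 was higher (49.4% of peaks), and Hspa8 overlapped. Here too the shares mix strong and weak peaks and are not like for like. This comparison and the one above share the 4 h libraries.

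After 40 min most of the genes stood lower relative to the Hspd1/Hspe1 peak, as did many other peaks. At 40 min (first pair), 8 of 9 genes stood lower in both libraries than in both room temperature libraries, beside 50.5% of 507 peaks, with log2 differences from -0.18 (Hspa4l) to -0.70 (Hspbp1) and a median of -0.24 over all peaks. Hikeshi alone among the 9 was higher, with 7.58% and 6.90% for the first 40 min pair against 6.50% and 6.79% at room temperature (log2 difference 0.12). Over all peaks 6.90% were higher in this way. Both shares mix strong and weak peaks, and the 9 genes were not matched to them for strength. The gap between the Hikeshi groups was smaller than the spread between the 40 min libraries.

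TXNIP, an inhibitor of thioredoxin, was the subject of the genotype comparison, and TXNIP KO was set against the second 40 min pair. None of the 9 genes called in both second pair libraries was lost in TXNIP KO, beside 10.6% of 5813, and none could be gained (0.477% of 13849 genes were), since Hspa2 had a peak in 1 WT library. Relative to the Hspd1/Hspe1 peak, 5 of 9 genes overlapped between the genotypes. Hspa8 stood at 43.8% and 48.6% in TXNIP KO against 50.3% and 51.6% in WT. Hsph1 stood at 38.6% and 36.2% in TXNIP KO against 39.3% and 43.8% in WT. St13 stood at 44.4% and 48.5% in TXNIP KO against 48.8% and 51.5% in WT. These 3 were lower in TXNIP KO without overlap, beside 24.9% of 3616 peaks. Hspa4 was higher, with 4.07% and 3.55% in TXNIP KO against 2.64% and 3.49% in WT, beside 19.8% of peaks. The peaks behind these shares were not matched to the genes for strength. Log2 differences of the 9 genes ran from -0.15 (Hsph1) to 0.33 (Hspa4), and for Hspa8, Hsph1, St13 and Hspa4 alike the closest values of the groups lay nearer to each other than the 2 TXNIP KO libraries did. With the first 40 min pair as the WT control, whose values were 40.5% and 47.1% for Hspa8, 39.8% and 38.4% for Hsph1 and 39.0% and 47.0% for St13, the genotypes overlapped at all 3 of these genes. Hspa4 was higher in TXNIP KO there too, with 3.20% and 2.29% in the first WT pair. Both comparisons share the TXNIP KO libraries, and the share of peaks higher against the first pair was not computed. Against the first 40 min pair Hspa2 would count as gained in TXNIP KO. The share of all genes gained there was not computed, and the TXNIP KO lists are far longer (10399 and 10633 peaks against 2287 and 1670). With −log10 q of at least 5, Hspa2 left the TXNIP KO count, which fell from 10 to 9 genes.

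Other genes of the HSP70 system were counted over a list of 25, all matched. A peak of both libraries was listed for 7 at room temperature, 9 for the first 40 min pair, 4 at 4 h, 16 in TXNIP KO and 18 in the second 40 min pair, beside the shares of all genes given above. The 4 at 4 h were Dnaja1 and Dnajb1, HSP40 genes that load HSP70, Stip1, which encodes Hop, the bridge from HSP70 to HSP90, and Hspa1l, which shares the Hspa1a peak. At room temperature Hspa9, the mitochondrial HSP70, Bag3, an exchange factor in selective autophagy, and the HSP40 gene Dnajb4 were listed as well. After 40 min (first pair) Bag2 and Dnajb6 were gained, 2 of the 17 that could be (1.15% of all 20878 such genes), both with low folds (4.11 and 4.73 for Bag2, 5.07 and 6.12 for Dnajb6). At 4 h against room temperature Hspa9 and Dnajb4 were lost, 2 of 7, beside 63.4% of all 645 genes that could be lost. Hspa5, the HSP70 of the endoplasmic reticulum, Hspa14 and Bag4 had no peak in any list, and Hspa12a, Hspa12b, Hspa13, Hyou1, Sil1, Grpel1, Grpel2, Bag1, Bag5, Bag6, Dnaja2, Dnajc7 and Stub1 had peaks of 18.9-fold or less.

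Stip1 was also lower at 4 h relative to the strongest peak. It stood at 17.8% and 16.98% of the Hspd1/Hspe1 fold at 4 h, against 40.8% and 38.4% at room temperature (log2 difference -1.19). Dnaja1 had 43.7% and 30.2% at 4 h against 63.3% and 52.7% at room temperature. Bag3 had a fold of 8.21 in 1 of the 4 h libraries and no peak in the other.

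The genes most like the 6 strongly bound ones were ranked by a measure of distance. Over 10 libraries, the log2 fold minus the list median was compared with the median of the 6 genes called in all lists, among 86 other genes called in all lists. The mean absolute difference was smallest for Fkbp4, an HSP90 cochaperone (0.22), followed by Hsp90aa1, the inducible HSP90 (0.23), Aptx and Dnaja1, which share 1 peak (0.36), and Stip1 (0.39). The libraries differ in list length and scale, so this likeness is a description of order within lists.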

How the data were processed

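HSF1 ChIP-seq peaks of 10 libraries were analysed, and the 5 input libraries, 1 of them with conflicting condition labels, were not analysed here. MACS2 2.2.7.1, BWA 0.7.17, deepTools 3.4.3, Trim Galore 0.6.0 and SAMtools are named, with build GRCm38.p6 (mm10), per the submitters' processing notes. Whether reads were filtered or deduplicated, how reads with several matches were handled and which input lies behind each fold is not given in the sources used here. From each library the authors deposited 1 narrow peak list, with a linear fold ratio at the summit, −log10 p-value and q-value columns, the summit position (another column) and an integer score, which was not used. The deposited lists show that peaks were called per library and not on pooled replicates. Fixation used 2 mM DSG (25 min) and then 0.8% formaldehyde (12 min), per the labels.

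Peaks on chromosomes 1 to 19, X and Y were kept, and coordinates are 1-based. Overlap was at least 1 bp with a protein-coding gene span of RefSeq GRCm38.p6 plus 5 kb. Shares over all genes are descriptions, and no test was run. Python 3.11.15 with pandas 2.3.3 and numpy 2.4.6 was used, after overlap counts and the motif search were tested on simulated data. Alternatives covered the flank, q, overlap, list length, replicates, control pair, motif and ranking. Named genes were the 10 genes, the listed HSP70 system genes, genes sharing a peak, Hspd1/Hspe1 and the 5 most alike. Ahsa2 was named after its value was seen. The genes and lists were chosen with earlier results of these data known.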

Additional observations from a re-analysis of the deposited data

How the results depend on the processing

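No paired analysis was possible because no result comes from a test, and replicate numbers of different groups are not stated to mark a shared animal or day. Leaving out 1 library at a time kept the genes with a peak at 9 at both room temperature and 40 min (first pair), 6 at 4 h, 10 in TXNIP KO and 9 to 10 in the second 40 min pair, and the other HSP70 system genes at 7 to 8, 9 to 11, 4 to 5, 18 (16 with both libraries) and 18 to 21 in the same groups. It kept 0 gained and 0 lost at 40 min against room temperature, and 0 gained and 3 lost at 4 h against either earlier group. In TXNIP KO 0 to 1 was gained and 0 lost: Hspa2 counted as gained without second pair replicate 1, as it did with the first 40 min pair as control (1). The share of all genes gained was not computed for these settings. In lists of equal length 1 gene was lost at 4 h against room temperature and 0 against the first 40 min pair, by construction, since the lists are cut to the shortest. Promoter matches numbered 1 with 3 exact units and 3 with 1 mismatch, with 2 exact units and with 5 units. The 4 h minus room temperature log2 difference of Hspa1a, -1.67, was -1.79 to -1.54 with 1 library left out, and -1.50 relative to Hspa8, -1.91 relative to St13, -1.37 relative to the median of genes called in all 4 lists and -2.30 from −log10 p. That of Hspa1b, -1.49, was -1.74 to -1.25 with 1 library left out. It was -1.33 relative to Hspa8, -1.74 relative to St13, -1.19 relative to that median and -1.99 from −log10 p. These alternatives for the relative fold and the search for 5 units were chosen after seeing the data. Of the 201 alternative values, 188 stayed within the limits set for a change and 13 moved. Among those that moved were the Hspa1a difference on every other scale or measure, and that of Hspa1b relative to the median and from −log10 p. Many counts had little room to change: in the main setting at most 1 gene could be gained in any comparison. Depth is unknown for every list, so a missing peak does not show that HSF1 was absent.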

Other observations

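Beside the strongest peak of each gene, the gene spans held 29 weaker peaks at 12 places, all in the TXNIP KO and second 40 min lists, with folds from 3.06 to 9.28. Of these places, 4 were called in all 4 of those libraries. The strongest lay 3702 bp below the lower end of Hspa1b, with folds of 5.38 to 9.28, and another lay 3088 bp above its upper end, with folds of 3.74 to 5.32. At Hspa8 such a peak lay 2990 bp above the upper end (3.95 to 4.36), and at Hspbp1 at a distance of 504 bp below the lower end (7.70 to 8.36). In the 6 shorter lists each bound gene had a single peak in its span plus 5 kb.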
